A study of Mus musculus with 4 samples.

Results

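The genes described here are 162 DNA repair genes that the authors tied to a change in N6-methyladenosine (m6A), a methyl mark on RNA, between MIN6 cells that had received a GR vector and MIN6 cells that had received a control vector. They are the Ensembl gene IDs under the term DNA repair in the deposited Gene Ontology (GO) table, which named 177 IDs. Left out were 15 IDs that also stood under sister chromatid segregation, such as Atrx, Rad21, Smc1a, Smc3, Rad51c and Xrcc3. The remaining 162 were among 9225 distinct IDs in the deposited table of genes related to differential peaks. That table chose the members, so their presence in it is not a result. Of these 162, 160 were classed as protein coding in RefSeq.

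MIN6 cells come from a mouse insulinoma and serve as a stand-in for beta cells, with C57BL/6 given as their strain. The control arm was transfected with a control vector and the GR arm with a vector for expressing GR, an abbreviation that is taken here as the glucocorticoid receptor. Dishes received 10 µg of plasmid, and RNA was taken 24 hours later. Both arms had 1 input library and 1 library of RNA pulled down for m6A, which makes 4 libraries, so no value below has a replicate check. The beta-cell genes Ins1, Pdx1, Mafa and Nkx6-1 were in the gene table and Ins2 was not. Levels per library were not analysed here, so this says nothing about how strongly the genes were expressed, and depth is unknown.

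Cells mend DNA by several routes. Base excision repair removes a single damaged base through a glycosylase and an endonuclease, nucleotide excision repair cuts out a stretch around a bulky lesion, and mismatch repair corrects copying errors. Double-strand breaks are joined directly by end joining or copied from a sister strand by homologous recombination, and the Fanconi proteins unhook strands that are linked to each other. m6A is placed on messenger RNA by a methyltransferase complex and is known to affect how long a transcript lasts and how well it is translated.

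What is known of each gene is whether it was listed and on how many lines. The direction and size of the m6A change were not given for these genes: of 22 genes with deposited log2 fold changes, all in an autophagy table, 0 were DNA repair members. Presence in the gene table is also an incomplete record of differential peaks, since 13 of those 22 genes were absent from it. An unlisted gene is therefore not a gene shown to lack a change. The files do not say what its lines count, and the lines of a gene are identical to one another.

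Repair genes were sorted into 10 lists by route, 214 genes in all, of which 212 had a reference ID (Hrob and Shld3 did not). Of the 212, 85 were listed, 40.1% with an exact Clopper-Pearson 95% interval of 33.4% to 47%. Over all 21900 protein-coding genes of the reference the share was 25.2%. That reference was not limited to genes expressed in MIN6 cells, and the part of expression in the gap was not tested. On 2 or more lines stood 35 of the 212 (16.5%) and 11.2% of all protein-coding genes. The lists hold 75 of the 162 members, with 1 member in 2 lists (Ercc4) and 1 in 3 (Lig1). Intervals cover counting error only, and no difference between routes or from other genes was tested.

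**Figure D1:**
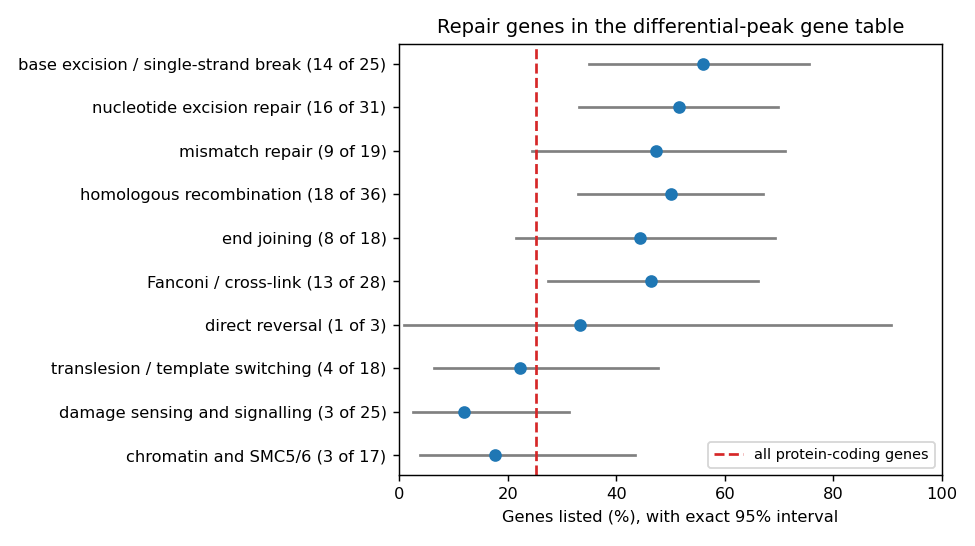
Share of each repair list found in the differential-peak gene table (circles, % of genes, with the exact 95% interval as a bar) beside the 25.2% of all protein-coding genes (dashed line). The excision, mismatch, break repair and Fanconi lists lie between 44.4% and 56.0%, and damage signalling is lowest at 12.0%. The dashed line was not limited to genes expressed in MIN6 cells.

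In base excision and single-strand break repair, 14 of 25 genes were listed (56.0%, interval 34.9% to 75.6%). Lig3, the ligase that seals the nick, had the most lines of the route, 5 (chromosome 11, 82781109 to 82804274, GRCm38.p6). Apex1, the main endonuclease at sites that have lost a base, had 3 lines and its relative Apex2 had 2. The others had 1 line each: the glycosylases Ung, Tdg, Mbd4, Mpg, Neil2 and Neil3, the gap-filling polymerase Polb, the break sensor Parp1, Parg, Tdp1 and Lig1. Of 11 DNA glycosylases 6 were thus listed, while Ogg1, Mutyh, Nthl1, Neil1 and Smug1 were not. Xrcc1, the scaffold that holds Lig3, was absent, as were Parp2, Aptx, Aplf and Fen1.

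Nucleotide excision repair had 16 of 31 genes listed (51.6%, interval 33.1% to 69.8%). Ercc4, which with Ercc1 forms the nuclease on the 5′ side of the lesion, had the most lines of the list, 3, and Ercc5, the nuclease on the 3′ side, had 2, whereas Ercc1 was not listed. Rbx1, a ubiquitin ligase subunit, had 2 lines as well. On 1 line stood the damage sensor Xpc, Xpa, the 3 genes of the RPA complex (Rpa1, Rpa2 and Rpa3), which coats single-stranded DNA, Uvssa and Lig1. Of the 10 genes of TFIIH, which opens the helix, 5 were listed on 1 line each, namely the helicases Ercc2 and Ercc3, Gtf2h4, Gtf2h5 and Ccnh. Ddb1, Ddb2 and the transcription-coupled factors Ercc6 and Ercc8 were not.

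Mismatch repair had 9 of 19 genes listed (47.4%, interval 24.4% to 71.1%). Msh6, a mismatch recognition protein, had 4 lines and Msh3, which recognises small loops, had 2. Mlh3 had 4 lines, and Pms1 and Pms2 were absent under their own IDs. Gm42421, a member with 2 lines outside the lists, stood under the GO term mismatch repair and was counted as Pms2 in the deposited KEGG pathways. Among the replication proteins that refill the gap, Rfc5 had 3 lines, Rfc2 had 2, and Pcna (the sliding clamp), Pold2, Pold3 and Lig1 had 1 each. Rfc2, Rfc5 and Pold3 did not stand under the DNA repair term and so are not members.

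Homologous recombination had 18 of 36 genes listed (50.0%, interval 32.9% to 67.1%). Rad52, which anneals single strands, had 5 lines (chromosome 6, 119901722 to 119922827), Brca1 had 4 (chromosome 11, 101488761 to 101551955), the strand-exchange motor Rad54l had 3, and Sfr1 had 2. On 1 line stood Rad51d, Rad54b, Rbbp8, Dna2, Wrn, Helq, Rmi1, Eme1, Slx1b and Zswim7. Also listed, but outside the members, were Xrcc3 and Rmi2 with 2 lines and Rad51c with 1. Some partners of listed genes, picked after the values were seen, were not in the table. Brca1 was listed without Bard1, Brca2 or Palb2, and Eme1 without Mus81. Rmi1 was listed with Rmi2 but without Blm or Top3a. Of the 3 genes of the MRN complex that first binds a broken end (Mre11a, Rad50 and Nbn), 0 were listed.

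End joining had 8 of 18 genes listed (44.4%, interval 21.5% to 69.2%), with a median of 2.5 lines, against 1 for all members and for all 9225 IDs of the table. Lists with few members had like medians: 2.5 for damage sensing (2 members), 3 for direct reversal (1 member) and 2 for translesion synthesis (4 members) and chromatin and SMC5/6 (3 members). The median was 1.5 for mismatch repair and 1 for the remaining lists. Polq, the polymerase of the alternative pathway that uses short matching sequences, had 6 lines (chromosome 16, 37011741 to 37095419), and so did Poll, a gap-filling polymerase (chromosome 19, 45552275 to 45560564). No member of the other route lists had more than 5. Rif1 and Trp53bp1, which protect broken ends from being trimmed, had 4 and 3 lines, Lig4 had 2, and Xrcc5, Polm and Cyren had 1. Absent were Xrcc6, which pairs with Xrcc5 in the Ku ring, the kinase gene Prkdc, and Xrcc4 and Nhej1, which work with Lig4.

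The Fanconi and cross-link list had 13 of 28 genes listed (46.4%, interval 27.5% to 66.1%). The core complex is the ligase that marks the Fancd2 and Fanci proteins. Of its 8 FANC genes, 6 were present with 1 line each (Fancb, Fance, Fancf, Fancg, Fancl and Fancm), without Fanca and Fancc. The 3 associated proteins were present too, Faap20 and Faap24 with 2 lines and Faap100 with 1. Neither of the substrates of this ligase, Fancd2 and Fanci, was listed, nor its conjugating enzyme Ube2t, whereas Usp1, the protease that removes the mark, had 2 lines. The cross-link nuclease gene Dclre1a had 4 lines and Ercc4, named above, 3. Dclre1a and Fance were outside the DNA repair term.

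At 1 or more lines, lower shares were found in the lists that sense or bypass damage. At 2 or more lines that order was lost, with 12.0% for damage sensing and 16.7% for translesion synthesis beside 12.0% for base excision and 9.68% for nucleotide excision repair. Of 25 sensing and signalling genes 3 were listed (12.0%, interval 2.55% to 31.2%): Mdc1 and the ubiquitin ligase gene Rnf168 with 3 lines each, and Etaa1 with 2. The 4 kinase genes Atm, Atr, Chek1 and Chek2, the 3 genes of the 9-1-1 clamp and the 5 genes counted for the BRCA1-A complex were all absent, though Rad9b, a relative of the clamp gene Rad9a, was a member with 1 line. Trp53, the p53 gene, was also absent. Of 18 translesion and template-switching genes 4 were listed (22.2%, interval 6.41% to 47.6%), namely Ube2a, Ube2b and Shprh with 2 lines and Smarcal1 with 1, and none of the polymerase genes Polh, Poli, Polk, Rev1 and Rev3l. The chromatin and SMC5/6 list had 3 of 17 (17.6%, interval 3.8% to 43.4%), Actr8 and Nsmce3 with 2 lines and Smarcad1 with 1. Among 3 direct reversal genes only Alkbh2 was listed, with 3 lines, and not Mgmt or Alkbh3.

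The other 87 members were in none of the lists. On 4 or more lines stood 16 of them (18.4%), 8 of the 75 members inside the lists (10.7%) and 9.69% of all IDs of the gene table, and these shares were not tested against each other. They were grouped by known role after their values were seen. The group of DNA replication and fork protection (13 genes, median 2 lines) contained both members with the most lines. Gins2, a subunit of the replicative helicase, had 11 (chromosome 8, 120581266 to 120589075), and Bod1l, which protects stalled forks, had 8 (chromosome 5, 41787538 to 41844355). Tonsl, which reads newly made chromatin at forks, had 5 and Inip had 4. Chaf1a and Chaf1b, subunits of a histone chaperone, had 2 lines each, and Cdc7, Pola1, Gins4 and Ssrp1 had 1.

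Among 19 helicases, nucleases and related enzymes, the helicase gene Recql had 6 lines, and Endov and Eme2 had 3. In the ubiquitin and ADP-ribose group (12 genes, 9 of them with 2 or more lines) Tnks1bp1 and Gm28043 had 6 lines and the deubiquitinase gene Usp10 had 4. RefSeq gives Gm28043 as a non-coding RNA, listed with the synonym Rnf8-cmtr1, and Rnf8 itself was not listed. The span of Gm28043 (chromosome 17, 29614789 to 29705979) contains that of Rnf8 (29614789 to 29641664). A peak in the shared stretch could belong to either gene. Of 21 chromatin and transcription genes, Zbtb7a and Dek had 5 lines and 13 had 1, among them Kdm1a, Hmgn1 and Cdk9. Polg, the mitochondrial DNA polymerase, had 4 lines, and Nudt1, which clears oxidised nucleotides, had 1. In the recombination group Swsap1 and Bccip had 4. The term also brings in genes better known for other work, such as the melanocortin receptor gene Mc1r and the acetylcholine receptor gene Chrna4, each with 4 lines.

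**Figure D2:**
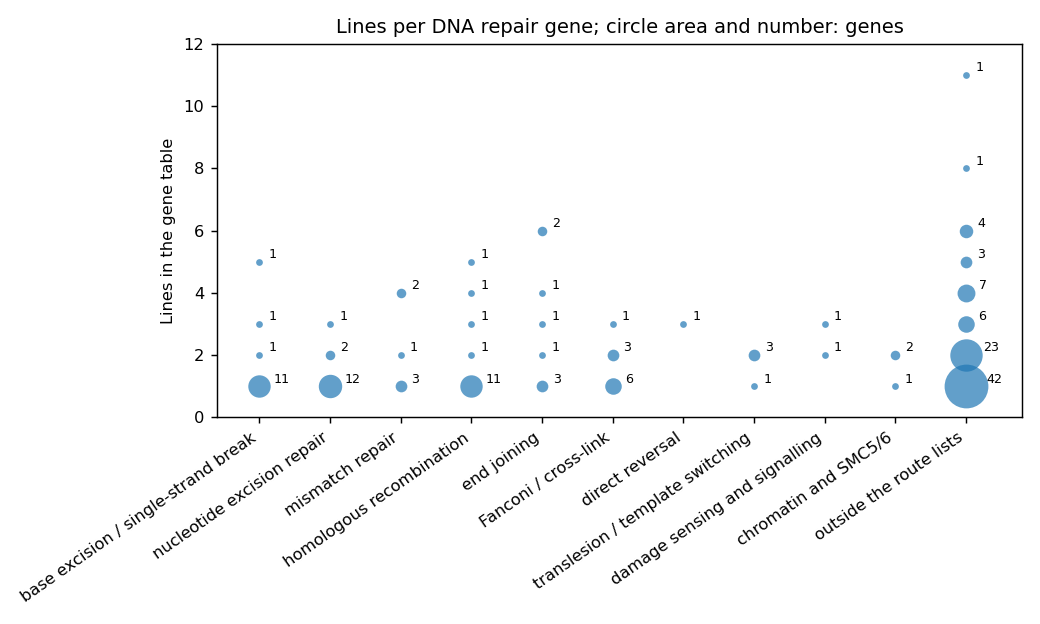
Lines per member in the gene table (vertical axis), by repair list and for the 87 members outside the lists; circle area and the number beside it give how many genes share a value, and Ercc4 and Lig1 appear in each of their lists. Most circles at 1 line are the largest of their column, and the highest value, 11, is Gins2.

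By mean number of lines and by the share on 2 or more lines, the repair genes were close to the table as a whole. The 162 members had 324 lines, a mean of 2 per gene, and the 9225 IDs had a mean of 1.85. On 2 or more lines stood 74 members (45.7%, interval 37.8% to 53.7%) and 44.4% of all IDs. For the 89 IDs of sister chromatid segregation the share was 42.7%. Higher up the members lay further from all IDs, with 22.2% against 18.7% on 3 or more lines. On 4 or more stood 24 members (14.8%) against 9.69% of all IDs, and these differences were not tested. The range was wider in the whole table, whose longest entry had 52 lines.

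Some members shared their stretch of genome with another listed gene, so that a peak there could belong to either. By RefSeq spans this was so for 27 of 161 members with a span (16.8%), and for 12.9% of all listed protein-coding genes. Ung overlapped Alkbh2, and Dtx3l overlapped Parp9, so that in these pairs both genes are repair members. Gins2 overlapped Gse1, Lig3 overlapped Rffl, Msh6 overlapped Fbxo11, Trp53bp1 overlapped Tubgcp4 and Fancf overlapped Gas2. Whether counting used the strand is not stated, and the part of these overlaps in the lines was not tested. Alkbh2 was the only listed gene of the direct reversal list, and without genes that overlap another listed gene that share was 0%.

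Pooled over the lists, gene span differed between listed and unlisted repair genes. The 85 listed genes of the repair lists had a median span of 18.7 kb and the 127 unlisted ones 32.4 kb, against 17.1 kb for all protein-coding genes and 16.5 kb for the listed ones. Base excision and single-strand break repair went the other way, with medians of 24256 bases for listed and 11804 for unlisted genes. In every other list the listed genes had the shorter median. All protein-coding genes were divided by span into 4 bins of equal number. The share of repair genes listed was 58.3% (7 of 12) in the shortest bin, 52.3% (34 of 65) in the next, 36.2% (25 of 69) in the third and 28.8% (19 of 66) in the longest, and the shortest bin is thinly filled. Over all protein-coding genes the shares were 19.9%, 32.0%, 27.5% and 21.4%, without such a steady fall. Neither set was limited to genes expressed in MIN6 cells, and the part of expression in these shares was not tested. Among the members, those on 1 line and those on 2 or more had like spans, with medians of 22.6 and 21.1 kb. The difference in span was seen in the data and not tested.

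**Figure D3:**
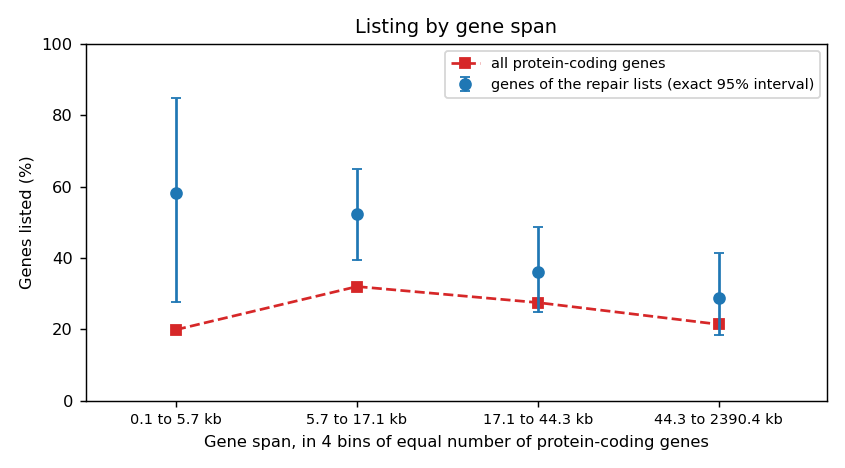
Share of genes listed (vertical axis, %) in each of 4 bins of gene span in kb, for the repair lists (circles, with exact 95% intervals) and for all protein-coding genes (squares). The repair genes go from 58.3% in the shortest bin to 28.8% in the longest, and the squares stay between 19.9% and 32.0%.

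Protein domain names deposited beside each gene show which enzyme families the members represent. The 3 ATP-dependent DNA ligases (Lig1, Lig3 and Lig4) and the family X polymerases Polb, Poll and Polm were the only IDs of the gene table with those domains. The ERCC4 nuclease domain was found in 4 IDs, all members (Ercc4, Eme1, Eme2 and Fancm). The BRCT domain, which binds phosphorylated partners at breaks, was named for 12 IDs, of which 8 were members: Brca1, Trp53bp1, Paxip1, Parp1, Lig3, Lig4, Poll and Polm. Of 51 IDs with the ATP-binding domain of helicase superfamilies 1 and 2, 14 were members, among them Polq, Recql, Wrn, Helq, Fancm and Ercc3, and 6 of these 14 also carried the SNF2 domain of chromatin motors (Rad54l, Rad54b, Smarcad1, Smarcal1, Shprh and Ercc6l2). Only 2 members had no domain name, as against 3658 of the 9225 IDs. These sets are unlike, since 160 of the 162 members but only 5526 of the 9225 IDs were protein-coding genes. The difference is therefore not read as a trait of repair genes.

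Repair genes are textbook targets of E2F, the factor that switches on genes for S phase, and RefSeq promoter windows (GRCm38.p6, 250 bases before to 50 after a start) were searched for its core GCGGGAA on both strands. Of 130 members with a window 33 held it (25.4%, interval 18.2% to 33.8%). The share was 22.2% in 108 unlisted genes of the repair lists, 9.35% in 4418 listed protein-coding genes and 6.84% in all 17492 protein-coding genes with a window. By window, it was 5.96% of 21264. The intervals for listed members and for unlisted repair genes (14.8% to 31.2%) overlapped. A half-site of the GR response element, AGAACA, was in 13.1% of members (interval 7.81% to 20.1%) and 13.0% of unlisted repair genes. It was in 15.1% of listed and 18.5% of all protein-coding genes. CCAAT was in 49.2% (interval 40.4% to 58.1%), 50.9%, 43.5% and 42.3% in the same order. For both motifs the interval of the members held the share of all protein-coding genes. By window, AGAACA was in 16.2% and CCAAT in 38.2%. A match is a string of letters and not a measured binding site. As examples, the windows of the 5 list members with the most lines whose E2F core lies before the start are printed, 30 bases each, 5′ to 3′ on the strand of the gene, with the core or its complement in capitals.
Rad52 (chr6:119902555-119902584, + strand): ttgctgcggctGCGGGAAggctgatcgccg
Rnf168 (chr16:32277414-32277443, + strand): tagcaggctagGCGGGAAcgcagacgcagc
Ercc5 (chr1:44147664-44147693, + strand): caagtgtcaacGCGGGAAtcccaaccctcg
Rbx1 (chr15:81466186-81466215, + strand): ggaggagggggGCGGGAAacctccgcctgc
Ube2a (chrX:36874122-36874151, + strand): gtttcctttgcTTCCCGCctagccttttcc
In 4 of these genes the core reads along the gene strand and in Ube2a on the opposite one. The first base of the core lies 132 bases before the start site of the window in Rad52, 36 in Rnf168, 69 in Ercc5, 119 in Rbx1 and 162 in Ube2a. In Rad52 and Ercc5 that start site lies inside the gene span, 976 and 796 bases from its first base, and in the other 3 genes it is the first base of the span.

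Under the narrower terms of the GO table the repair routes named next had higher shares than damage bypass, with overlapping intervals. Interstrand cross-link repair had 15 of 28 background genes listed (53.6%), base-excision repair 21 of 42 (50.0%), end joining 21 of 44 (47.7%), homologous recombination 51 of 110 (46.4%), mismatch repair 11 of 27 (40.7%) and nucleotide-excision repair 20 of 50 (40.0%). Postreplication repair, with 6 of 23 (26.1%), and translesion synthesis, with 4 of 15 (26.7%), were near the 26.0% of all 20770 background genes found in any term. Their intervals, 10.2% to 48.4% and 7.79% to 55.1%, overlapped those of the routes above. Small repair terms varied: mitochondrial DNA repair had 3 of 5 (60.0%) and transcription-coupled nucleotide-excision repair 4 of 9 (44.4%). Single strand break repair had 4 of 11 (36.4%), DNA dealkylation 2 of 7 (28.6%) and repair DNA synthesis 6 of 28 (21.4%). The DNA damage checkpoint had 35 of 104 (33.7%), and 12 of its 35 were repair members. The term for regulation of end joining had 12 of 20 (60.0%, interval 36.1% to 80.9%): Rif1, Cyren, Dek, Dtx3l, Parp9, Nsd2, Nudt16l1, Mrnip, Aunip, Trappc13, Usp51 and Wrap53. Terms overlap, and 53 of the 162 members were in none of the 5 route terms for base excision, nucleotide excision, mismatch, double-strand break and cross-link repair.

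**Figure D4:**
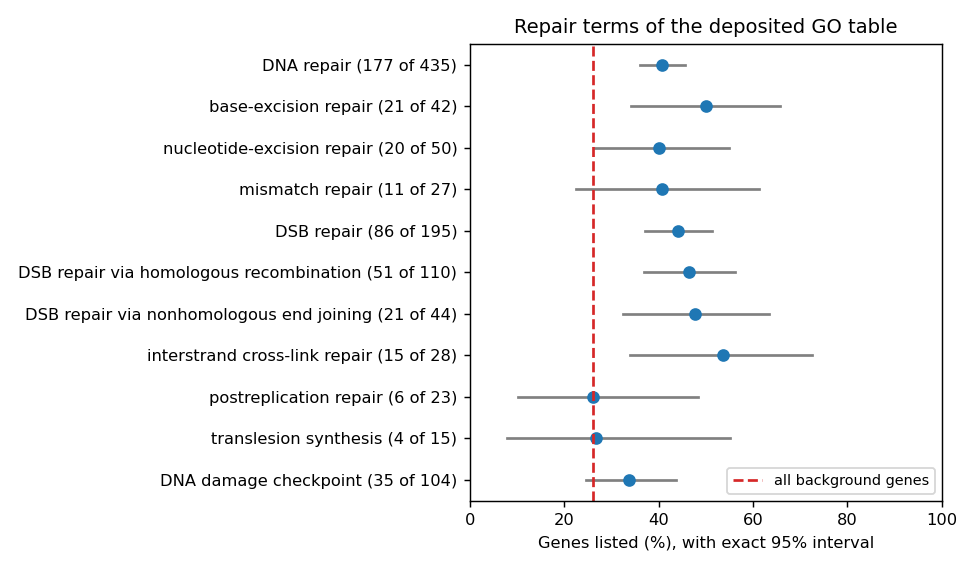
Share of the background genes that the deposited GO table lists under selected repair terms (circles, %, with exact 95% intervals), with the 26.0% of all background genes as a dashed line. Of the terms drawn, cross-link and base-excision repair are highest at 53.6% and 50.0%, and translesion synthesis and postreplication repair sit close to the line.

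In the KEGG pathway table the count for base excision repair rested in part on copies of another gene. It had 30 input IDs against 35 background genes, with p = 6.86e-09 in the authors' deposited table and 6.03e-08 after adjustment. Those 30 IDs mapped to 21 Entrez genes, because 10 of them were counted as Hmgb1, a DNA-bending chromatin protein. The ID of Hmgb1 itself was not listed. The 10 IDs carry other names (Gm16471 with 5 lines, Gm8152 with 2 and the rest with 1), and RefSeq classes 7 as pseudogenes and has no row for the other 3. Fen1 and Pole were also counted only through IDs with other names, Gm10143 and Gm15792. That left 18 genes of the pathway listed by their own ID.

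The other repair pathways were affected less. Nucleotide excision repair had 27 input IDs against 44 background genes (p = 4.2e-06 in the authors' deposited table), mapping to 25 Entrez genes, 23 by their own ID, with the pseudogene Rbx1-ps among these. The Fanconi anemia pathway had 27 against 51 (p = 3.1e-05 in the authors' deposited table), with 25 and 23 in the same order. Here Poli was counted through the microRNA gene Mir6357 and Pms2 through Gm42421. Mismatch repair had 14 against 22 (p = 0.000655 in the authors' deposited table) and homologous recombination 14 against 28 (p = 0.00362 in the authors' deposited table), both with 13 Entrez genes. Rpa3 was counted a second time through Gm47455 in these pathways, in nucleotide excision repair and in the Fanconi anemia pathway. Non-homologous end-joining had 5 against 13, with p = 0.139 in the authors' deposited table and 0.184 after adjustment. These were Polm, Poll, Xrcc5, Lig4 and, through Gm10143, Fen1.

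**Figure D5:**
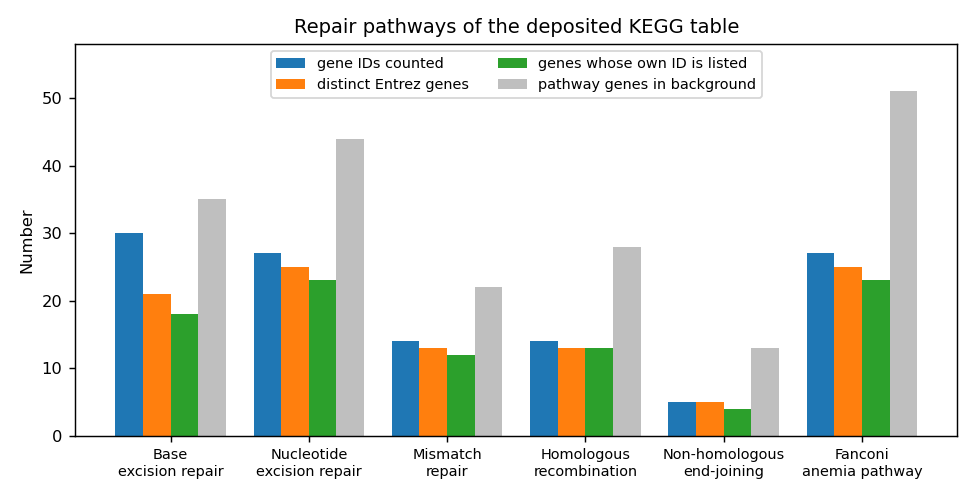
Genes of 6 repair pathways in the deposited KEGG table: input gene IDs, the distinct Entrez genes they map to, the genes whose own ID is listed, and the background genes of the pathway (bars, number). The gap between IDs and genes is widest for base excision repair, 30 against 21 and 18.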

How the data were processed

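Reads were processed by the authors with BWA 0.7.12 and HOMER 4.9.1 on mm10, per the submitters' processing notes; the program that called differential peaks is not given in the sources used here. The gene table has an Ensembl ID, a symbol and domain names on each of 17052 lines. The GO table gives counts of genes per term, per the file headers, with p-values that were not used. The KEGG table gives gene counts and the authors' p-values (hypergeometric or Fisher exact test, Benjamini and Hochberg), per the file headers. The autophagy table was used for gene names only.

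Overflow lines of the GO table were joined to their terms. List genes were matched to Ensembl IDs by symbol, and spans came from RefSeq GRCm38.p6. All 162 members had a reference symbol, which was the deposited symbol for 161. Shares have exact Clopper-Pearson intervals at 95%. No test was made, since the members were chosen from the same comparison and each arm had 1 library of each kind. The repair lists and members were chosen with earlier results of these data known, and the groups outside the lists, the complexes, the GO terms and the motifs after the values were seen. Genes named with their lines were, per list, those with the most lines (up to 5, ties kept), and outside the lists the 10 with the most lines and ties. Other genes outside the lists were named after their values were seen. Parsing and intervals were tested on simulated data. Python 3.11.15, SciPy 1.17.1 and Matplotlib 3.10.9 were used. Some genes of the lists are not reported here by name.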

Additional observations from a re-analysis of the deposited data

How the results depend on the processing

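Each gene has only its presence and a number of lines, so depth and replicate error could not be assessed. No paired analysis was possible because each arm has 1 library of each kind and no value per library was used. The 162 members became 177 with the IDs shared with sister chromatid segregation, and matching by deposited symbol or keeping genes of 1 list only moved none of the 11 shares of the repair lists beyond its interval. Asking for 2 or more lines lowered the share over all lists from 40.1% to 16.5%, with 12.0% for base excision, 9.68% for nucleotide excision, 16.7% for homologous recombination and 17.9% for the Fanconi list, where the share of all protein-coding genes fell from 25.2% to 11.2%. The other 6 shares stayed within their intervals, among them damage sensing at 12.0% and translesion synthesis at 16.7%, so that these lists no longer lay below the excision repair lists. Leaving out genes that overlap another listed gene, added after seeing the data, removed Alkbh2, the only listed gene of the direct reversal list. The share of that list became 0%, and no other share moved beyond its interval. The 45.7% of members on 2 or more lines became 22.2% at 3 or more. With the lines of a gene taken as identical, counting identical lines once leaves 1 line per gene. The 0% for that setting was therefore fixed in advance and is no check. Without the IDs shared with sister chromatid segregation, none of 8 GO shares left its interval. In KEGG, counting genes by their own ID, added after seeing the data, lowered base excision repair from 30 to 18, and the other 5 pathways changed by less than 1.5 times.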
